A study of Mus musculus with 2 samples.

Results

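Secreted or membrane-bound factors by which thymic epithelial cells (TECs) attract, hold and instruct developing T cells were followed across TEC types and between irradiated and control mice. They are the 5 genes Ccl25, Cxcl12, Dll4, Il7 and Kitl, taken by symbol from the 32285 genes that the deposited count tables list. TECs sorted as EPCAM+, CD45- and TER119- cells had been measured by droplet single-cell RNA sequencing in 1 control and 1 irradiated library, and 3 female C57BL/6 mice had been pooled for either one. γ-rays had been given to the irradiated mice at a dose of 5.5 Gy when they were 7 weeks old, with sampling on day 15, and the controls had been given none. Age is listed as 9 weeks in the sample characteristics and as 4 weeks in the protocol text.

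Which library was irradiated is contradictory in the deposit. The library labelled Radiation held 4937 barcodes, and the library labelled Control held 7167. Filtering left 3233 cells of the first and 5070 of the second. These are the cell numbers that the study's results give for control and irradiated mice, respectively. The first is therefore called control and the second irradiated, against their labels, and under the labels every direction between them would reverse. The kept cells had median depths of 13412 (control) and 13003.5 (irradiated) unique molecular identifiers (UMIs), each of which marks 1 captured RNA molecule. A UMI of Epcam, Krt8 or Krt18 was found in 99.8% of kept control and 99.7% of kept irradiated cells, and a UMI of the leukocyte gene Ptprc in 4.24% and 4.34%. The libraries shared 17 barcodes, 5 of them kept in both.

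The thymus makes T cells from progenitors that arrive by the blood. Cortical TECs (cTECs) receive them, drive them into the T lineage and select them for receptors that recognise self MHC, and medullary TECs (mTECs) later show them tissue-specific antigens. CCL25 and CXCL12 are chemokines that draw and position progenitors and thymocytes through the receptors CCR9 and CXCR4. DLL4 is the Notch ligand that commits progenitors to the T lineage through NOTCH1. IL-7 and the KIT ligand, encoded by Kitl, keep early thymocytes alive and dividing. The transcription factor FOXN1 controls many genes of TECs, Ccl25 and Dll4 among them.

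The genes lie on 5 chromosomes of the mouse build GRCm38. Ccl25 (ENSMUSG00000023235) lies at chr8:4325210-4360020 on the plus strand. Cxcl12 (ENSMUSG00000061353) lies at chr6:117168535-117181367, Dll4 (ENSMUSG00000027314) at chr2:119325784-119335962 and Kitl (ENSMUSG00000019966) at chr10:100015630-100100416, all on the plus strand. Il7 (ENSMUSG00000040329) lies at chr3:7569994-7613760 on the minus strand. All 5 are annotated as protein-coding, and 0 other annotated genes overlap any of them on the same strand. On the opposite strand, Elavl1 overlaps Ccl25, Gm14207 overlaps Dll4 and Gm16685 overlaps Il7.

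The starts of the genes were read for GACGC, the letters at the core of the FOXN1 binding motif, on both strands (GACGC or GCGTC). RefSeq promoters of GRCm38.p6, from 250 bases before to 50 bases after a start, were held for 4 of the 5 genes, Il7 being the other. The sequences are shown because the 5 genes are read below against FOXN1-dependent cortical genes, and capitals mark the matches. Ccl25 has 2 promoters in the table, at chr8:4324960-4325259 and chr8:4349338-4349637. Cxcl12 is shown at chr6:117168285-117168584 and Dll4 at chr2:119325534-119325833, all on the plus strand.
Ccl25 promoter 1: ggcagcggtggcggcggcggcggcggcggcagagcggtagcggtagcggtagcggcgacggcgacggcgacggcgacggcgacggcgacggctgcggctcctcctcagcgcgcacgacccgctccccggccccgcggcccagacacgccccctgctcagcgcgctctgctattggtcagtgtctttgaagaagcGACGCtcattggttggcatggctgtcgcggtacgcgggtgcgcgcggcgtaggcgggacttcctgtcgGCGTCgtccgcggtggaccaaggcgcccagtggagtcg
Ccl25 promoter 2: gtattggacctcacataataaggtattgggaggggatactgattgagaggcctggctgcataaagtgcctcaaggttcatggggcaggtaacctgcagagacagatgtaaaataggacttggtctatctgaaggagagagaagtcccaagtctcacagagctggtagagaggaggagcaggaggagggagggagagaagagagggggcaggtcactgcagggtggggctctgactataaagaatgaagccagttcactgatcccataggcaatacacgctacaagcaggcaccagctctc
Cxcl12 promoter: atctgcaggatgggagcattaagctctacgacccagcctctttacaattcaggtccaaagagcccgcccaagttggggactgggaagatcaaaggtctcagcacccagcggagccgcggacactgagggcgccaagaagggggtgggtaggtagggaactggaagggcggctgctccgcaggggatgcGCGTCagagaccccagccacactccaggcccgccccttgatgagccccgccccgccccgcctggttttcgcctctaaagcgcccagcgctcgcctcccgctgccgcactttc
Dll4 promoter: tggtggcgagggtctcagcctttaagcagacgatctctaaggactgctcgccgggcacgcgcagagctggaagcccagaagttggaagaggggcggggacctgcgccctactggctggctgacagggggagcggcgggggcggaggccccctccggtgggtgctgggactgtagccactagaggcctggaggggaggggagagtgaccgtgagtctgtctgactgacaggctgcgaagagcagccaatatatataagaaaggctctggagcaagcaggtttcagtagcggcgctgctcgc
The first Ccl25 promoter held 2 matches, at positions -56 and 12 from the start base, and the second held 0. The Cxcl12 promoter held 1, at position -62, and the Dll4 promoter 0. The Kitl promoter, at chr10:100015571-100015870 and not shown, held 1, at position -183. That position counts from a RefSeq start that lies downstream of the Kitl gene start given above. Of all 32851 promoters in the table, 27.2% held at least 1 match.

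Cells were put into groups by the summed UMIs of marker genes per 10000 UMIs of the cell. cTEC-like cells had at least 10 UMIs per 10000 of Psmb11, a subunit of the thymoproteasome, and Prss16, the thymus-specific serine protease. There were 160 of them in the control library (4.95%, exact 95% interval 4.23 to 5.75) and 396 in the irradiated library (7.81%, 7.09 to 8.58). Tbata, a thymus gene that had been meant as a further cortical marker, was high in many cells that also expressed Aire, the regulator of tissue-specific antigens in mTECs. The cells with the 3 genes at 10 or more but Psmb11 and Prss16 under 10 were therefore kept apart, as 339 control and 451 irradiated Tbata+ Aire+ cells (at least 3 Aire UMIs per 10000) and 152 and 245 Tbata+ Aire-low cells. The other groups were Aire cells without much Tbata (449 and 854), dividing cells (188 and 518), microfold or enterocyte cells (123 and 144), keratinocyte cells (58 and 47), tuft cells (155 and 147) and Ccl21a cells (1004 and 1632). The remaining 605 and 636 cells were ungated. Just outside the cTEC limit, at 8 to 10 UMIs per 10000, were 15 control and 35 irradiated cells, and just inside it, at 10 to 12, were 13 and 12.

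Cortical genes that no gate had used were high in the cTEC-like cells. Ctsl, a lysosomal protease, stood at 135 UMIs per 10000 in control cTEC-like cells and 146 in irradiated ones, against 1.56 and 1.96 in Aire cells. Ly75, the endocytic receptor DEC-205, stood at 7.89 and 8.75 against 0.38 and 0.44. Foxn1 stood at 1.60 and 1.70 against 0.79 and 0.81. The contrast was smaller with some other groups. In Ccl21a cells Ctsl stood at 22.4 and 24.4, and in Tbata+ Aire+ cells Foxn1 stood at 1.00 and 1.01. Ly75 was at 0.29 and 0.34 and Foxn1 at 0.39 and 0.38 in Ccl21a cells, both below the Aire cells. In Tbata+ Aire+ cells Ctsl was at 1.43 and 2.81 and Aire at 12.4 and 12.7, so they carry the gate's name and no cortical one. The ungated cells were split at 10 UMIs per 10000 of 6 mesenchymal genes, which gave 248 control (7.67% of kept cells) and 118 irradiated (2.33%) cells rich in the matrix gene Dcn. Their Epcam level was 4.77 and 5.47, their Dcn level 27.2 and 23.8, their Col1a1 level 0.512 and 0.868 and their Pdgfra level 0.10 in both libraries.

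Levels below are sums of UMIs over the cells of a group per 10000 summed UMIs of that group, with exact Poisson 95% intervals. Ratios are log2 of the irradiated over the control level, with 0.5 UMI added to each sum, and the range beside a ratio sets the lower end of one interval against the upper end of the other. The conditions had no replicate libraries, so differences between them were not tested. Intervals cover counting error only and leave out the spread between mice, libraries and cells. A difference of 0.5 or more on the log2 scale, in a gene with at least 50 UMIs over both libraries, is called past the size limit, and the share of all such genes past it is given as the background.

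**Figure D1:**
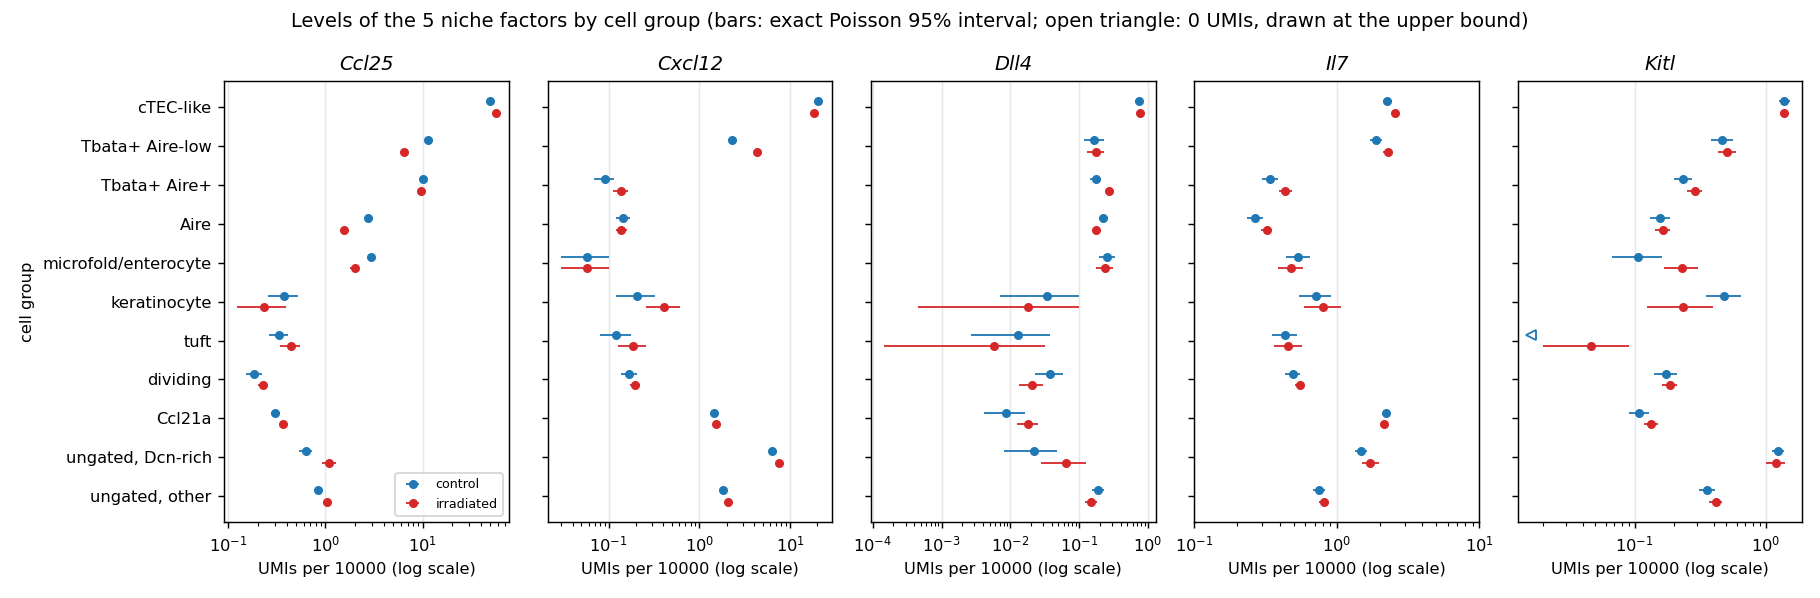
Level of each of the 5 genes (UMIs per 10000, log axis, 1 panel per gene with its own axis) in 11 cell groups of the control (blue) and irradiated (red) libraries, with exact Poisson 95% intervals. All 5 genes were highest in cTEC-like cells of both libraries, with Il7 close to that level in Ccl21a and Tbata+ Aire-low cells, and Ccl25 was also above 6 UMIs per 10000 in both Tbata+ groups.

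Ccl25 was a gene of the cortex with a clear presence in part of the Aire+ cells. In cTEC-like cells it stood at 49.6 UMIs per 10000 (48.9 to 50.4) among control cells and at 56.5 (56.0 to 57.0) among irradiated ones. At least 1 UMI was found in 93.1% of control (88.0 to 96.5) and 97.5% of irradiated (95.4 to 98.8) cTEC-like cells after each cell had been thinned at random to 4000 UMIs. Without thinning the shares were 96.2% and 99.0%. The median cell held 35.5 and 49.5 UMIs per 10000. The levels of single cells ran from 0 to 248 and from 0 to 193.

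The next groups were Tbata+ cells. Tbata+ Aire-low cells held 11.3 (10.8 to 11.7) control and 6.37 (6.10 to 6.66) irradiated Ccl25 UMIs per 10000, and Tbata+ Aire+ cells 10.1 (9.82 to 10.3) and 9.73 (9.52 to 9.95). Microfold or enterocyte cells followed with 2.95 and 1.99, and Aire cells with 2.76 (2.65 to 2.88) and 1.55 (1.48 to 1.61). The intervals of these latter groups overlapped in the control library and not in the irradiated one. Ungated cells stood at 0.774 and 1.06. Keratinocyte, tuft, Ccl21a and dividing cells all lay between 0.186 and 0.437. In control cells the cTEC-like level was 163 times that of Ccl21a cells and 17.9 times that of Aire cells, and in irradiated cells 154 and 36.5 times.

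In Aire cells Ccl25 was carried by few cells. The 5% of Aire cells with the most Ccl25 held 71.1% of its control and 69.7% of its irradiated UMIs, and the median Aire cell held 0. In Tbata+ Aire+ cells the top 5% held 39.5% and 42.3%, with medians of 1.13 and 0.745 per 10000, and a thinned UMI was found in 49.9% (44.4 to 55.3) and 44.1% (39.5 to 48.8) of them. In cTEC-like cells the top 5% held 21.2% and 16.8%. Poisson intervals are therefore too narrow for the Aire groups, and they leave out the spread between cells in the other groups as well. After thinning, 25.8% of control (21.9 to 30.2) and 18.9% of irradiated (16.3 to 21.6) Aire cells had a Ccl25 UMI, and 44.8% and 38.5% before thinning. The same share was 11.6% (7.03 to 17.7) and 16.3% (10.7 to 23.3) in tuft cells, and 24.5% and 28.6% before thinning. Tuft cells serve here as the background group, and whether their Ccl25 UMIs came from free RNA was not tested. The median depths of these groups were 18677 and 16448 UMIs for Aire cells and 13421 and 10484 for tuft cells. The irradiated share of Aire cells thus lay within the interval of the tuft cells. It lay above the irradiated shares of dividing cells, 7.92% (5.74 to 10.6), and Ccl21a cells, 12.5% (10.9 to 14.2). The irradiated Ccl25 level was 1.55 UMIs per 10000 in Aire cells and 0.437 in tuft cells.

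The Aire and Tbata+ Aire+ cells, all with at least 3 Aire UMIs per 10000, were binned together by their Tbata level. Cells taken by the tuft or dividing gate were left out. Both gates came after the cortical one, so dividing cells with 10 or more Tbata UMIs per 10000 stayed in the upper bins. The 10 dividing-cell genes summed to 2.20 control and 6.30 irradiated UMIs per 10000 in Tbata+ Aire+ cells, against 1.33 and 1.44 in Aire cells. The part of this difference in the values by bin was not tested. Among the binned cells, Ccl25 was the higher the more Tbata a cell held. In the control library it was 1.49 UMIs per 10000 in cells with under 1 Tbata UMI per 10000, 3.02 at 1 to 5, 3.66 at 5 to 10, 7.43 at 10 to 20, 10.6 at 20 to 40 and 19.0 at 40 or more. In the irradiated library the same steps gave 0.649, 1.60, 3.78, 6.41, 11.6 and 14.7. Each step was above the one before it in both libraries. Aire itself ran only from 10.5 to 13.9 over these 12 bins, and Cxcl12 from 0.0275 to 0.173. Other genes were also higher over the bins. Prss16 went from 0.218 to 0.577 in the control and from 0.255 to 0.533 in the irradiated library between the outer bins, Psmb11 from 0.0383 to 0.412 and from 0.00904 to 0.447, and Fezf2, a regulator of medullary antigens, from 4.36 to 8.73 and from 4.83 to 9.79. Dll4 went from 0.137 (0.108 to 0.172) to 0.392 (0.291 to 0.517) in the irradiated library, while in the control it was 0.230 (0.175 to 0.296) and 0.220 (0.141 to 0.327). Tbata+ Aire+ cells held 21.9 Ccl25 UMIs per Prss16 UMI in the control and 18.2 in the irradiated library, against 1.03 and 0.938 in cTEC-like cells. The gates had split these groups by their summed Psmb11 and Prss16, so a gap in this ratio was partly set in advance.

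**Figure D2:**
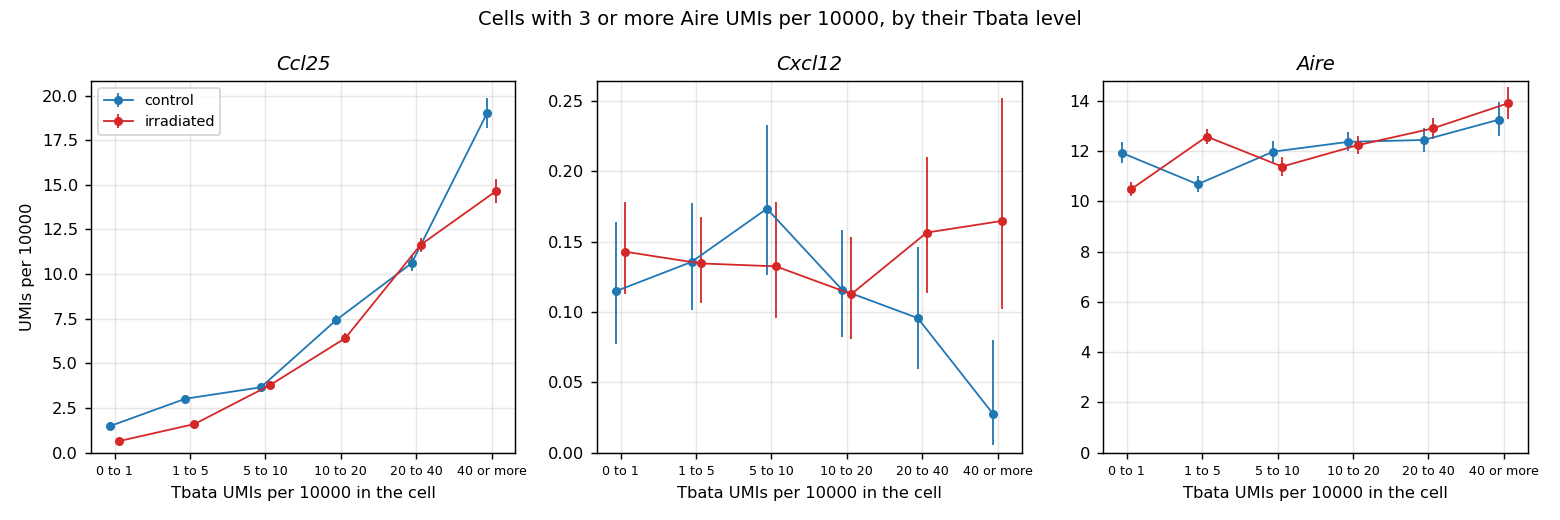
Levels of Ccl25, Cxcl12 and Aire (UMIs per 10000, linear axes from 0) in Aire and Tbata+ Aire+ cells, in 6 bins of their Tbata level. The control library is blue and the irradiated one red, with exact Poisson 95% intervals. All cells had at least 3 Aire UMIs per 10000, and cells taken by the tuft or dividing gate were left out. Cells with 10 or more Tbata UMIs per 10000 had passed the cortical gate first, so dividing cells among them stayed in. Ccl25 went from 1.49 to 19.0 (control) and from 0.649 to 14.7 (irradiated), while Aire stayed between 10.5 and 13.9.

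Between the libraries Ccl25 differed by cell group. In cTEC-like cells its log2 ratio was 0.19 (0.15 to 0.22), under the size limit. In Tbata+ Aire+ cells it was -0.047 (-0.11 to 0.019). In Aire cells it was -0.84 (-0.96 to -0.72), where 1 of the 5 genes and 17.2% of all 15004 genes were past the limit. In Tbata+ Aire-low cells it was -0.82 (-0.94 to -0.70), with 15.8% of all genes past the limit there. The thinned share of these cells with a Ccl25 UMI was 54.6% (46.3 to 62.7) and 52.7% (46.2 to 59.1). Among those with at least 10 Tbata UMIs per 10000, Ccl25 stood at 16.5 and 5.92 at 1 to 3 Aire UMIs (37 and 45 cells). Under 1 Aire UMI it stood at 9.96 and 7.10 (96 and 140 cells). Marker sums of other types differed in Tbata+ Aire-low cells. They were 0.421 and 1.81 UMIs per 10000 for 13 thymocyte genes, 0.733 and 1.84 for 7 tuft genes, 0.451 and 2.26 for 6 microfold or enterocyte genes, 3.24 and 1.83 for 6 mesenchymal genes and 8.07 and 5.46 for 5 genes of the Aire stage, and their part in the result was not tested. In microfold or enterocyte cells the Ccl25 ratio was -0.56 (-0.82 to -0.31), with 16.9% of all genes past the limit. Ungated cells went the other way, at 0.45 (0.24 to 0.66), with 16.5% of genes past the limit and 0 of these 5. Split, they gave 0.79 (0.33 to 1.26) in Dcn-rich cells, where 13.6% of genes were past the limit, and 0.31 (0.069 to 0.55) in the others, where 17.9% were. A single irradiated ungated cell held 122 of the group's 862 Ccl25 UMIs. In the plot by Tbata level, irradiated Aire+ cells were lower in the first bins, with 0.649 against 1.49 and 1.60 against 3.02. They were also lower at 10 to 20 Tbata UMIs, with 6.41 against 7.43, and at 40 or more, with 14.7 against 19.0. The Poisson intervals of these pairs were apart, but they are too narrow for the Aire groups and leave out the spread between cells. Irradiated Aire+ cells were not lower at 5 to 10, with 3.78 against 3.66, or at 20 to 40, with 11.6 against 10.6.

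The Aire and Tbata+ Aire+ cells together, 788 control and 1305 irradiated, held 5.99 and 4.46 Ccl25 UMIs per 10000, a log2 ratio of -0.42 (-0.48 to -0.37). Tbata+ cells made up 43.0% (39.5 to 46.6) of the control and 34.6% (32.0 to 37.2) of the irradiated cells among them. Aire-positive cells taken by the tuft or dividing gate, which came after the cortical gate and before the Aire gate, were left out. Prss16 in Aire cells was at 0.28 and 0.33 UMIs per 10000, and genes of thymocytes summed to 0.73 and 0.68. The part of the Tbata+ share in the Ccl25 difference was not tested.

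Cxcl12 was a gene of the cortex and of the Dcn-rich cells. Its cTEC-like level was 20.5 UMIs per 10000 (20.1 to 21.0) for the control and 18.1 (17.8 to 18.5) for the irradiated library, and 96.2% of the thinned cells had a UMI in either library. Dcn-rich ungated cells followed with 6.25 and 7.62, and 80.2% (74.7 to 85.0) and 77.1% (68.5 to 84.3) of them had a UMI. The other ungated cells held 1.81 and 2.04. Tbata+ Aire-low cells held 2.26 and 4.29 and Ccl21a cells 1.46 and 1.53. Aire, Tbata+ Aire+, tuft, dividing and microfold or enterocyte cells all lay between 0.0571 and 0.195, and keratinocyte cells held 18 control and 23 irradiated UMIs. The thinned share of Aire cells with a Cxcl12 UMI, 3.56% and 2.69%, was no higher than that of tuft cells, 4.52% and 3.40%, and is read as background.

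Ccl21a and Aire cells differed in which of Cxcl12 and Ccl25 they held. Control cTEC-like cells held 6733 Cxcl12 and 16260 Ccl25 UMIs, Ccl21a cells 1666 and 348, and Aire cells 127 and 2423. In the irradiated library the same pairs of counts were 13469 and 41938, 2709 and 651, and 199 and 2235. Ccl21a cells were richer in Cxcl12 and Aire cells in Ccl25 in both libraries. Tbata+ Aire-low cells held both, with a thinned Cxcl12 UMI in 36.8% (29.2 to 45.0) of control and 49.8% (43.3 to 56.3) of irradiated cells and a Ccl25 UMI in 54.6% (46.3 to 62.7) and 52.7% (46.2 to 59.1).

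The log2 ratio of Cxcl12 in cTEC-like cells was -0.18 (-0.24 to -0.12), under the limit. It was opposite in sign to Ccl25, whose ratio turned to -0.23 without cells with 2 or more mesenchymal or endothelial UMIs. The 6 mesenchymal genes summed to 2.46 control and 0.973 irradiated UMIs per 10000 in cTEC-like cells, and their part was not tested. In Tbata+ Aire-low cells the Cxcl12 ratio was 0.92 (0.72 to 1.12). Besides the marker sums given for these cells with Ccl25, single markers of other groups differed. Prss16 stood at 1.43 and 2.39, Ctsl at 29.4 and 48.0 and Ccl21a at 39.0 and 60.1, while Fezf2 stood at 5.502 and 3.748. Their part in the result was not tested. In Tbata+ Aire+ cells the ratio was 0.58 (-0.051 to 1.23) on 63 and 109 UMIs, and in tuft cells 0.59 (-0.47 to 1.66) on 28 and 32 UMIs, where 14.3% of all genes were past the limit. Both ranges held 0. In all ungated cells the ratio was -0.19 (-0.31 to -0.078), but 0.29 (0.12 to 0.45) in the Dcn-rich and 0.18 (0.0098 to 0.35) in the other ungated cells, which differed in number between the libraries.

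Dll4 was highest in cTEC-like cells and was found in Aire-lineage cells too. In cTEC-like cells its level was 0.741 (0.651 to 0.841) for the control library and 0.775 (0.713 to 0.841) for the irradiated one, from 243 and 575 UMIs. Thinned shares of cells with a UMI were 23.8% (17.4 to 31.1) and 20.5% (16.6 to 24.8), and 50.6% and 53.5% before thinning. Next came microfold or enterocyte cells (0.257 and 0.238), Aire cells (0.225 and 0.176), Tbata+ Aire+ cells (0.174 and 0.269) and Tbata+ Aire-low cells (0.165 and 0.175). In either library each interval overlapped that of the next group in order, down to ungated cells (0.131 and 0.136). Groups further apart in the order could differ, as irradiated Tbata+ Aire+ cells (0.234 to 0.307) lay above irradiated Aire cells (0.155 to 0.199). In microfold or enterocyte cells a single cell held 22 of the 53 control and 24 of the 50 irradiated UMIs. Ccl21a cells held only 10 UMIs in 1004 control and 32 in 1632 irradiated cells, or 0.00875 and 0.0180 per 10000. Tuft cells held 3 and 1. A thinned UMI was found in 7.80% (5.49 to 10.7) of control and 5.85% (4.38 to 7.65) of irradiated Aire cells. None was found in 155 control tuft cells, which allows up to 2.35%, or in 147 irradiated ones, which allows up to 2.48%, by the exact interval. The cTEC-like level was 80.8 times that of Ccl21a cells in the control and 42.4 times in the irradiated library, and 3.30 and 4.39 times that of Aire cells.

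The Dll4 log2 ratio was 0.062 (-0.24 to 0.37) in cTEC-like cells and -0.35 (-0.73 to 0.035) in Aire cells. In Tbata+ Aire+ cells it was 0.63 (0.17 to 1.09). There 2 of the 5 genes, Dll4 and Cxcl12, were past the limit, with 17.5% of all 13327 genes. The thinned share with a Dll4 UMI in these cells was 4.13% (2.28 to 6.83) in the control and 9.98% (7.37 to 13.1) in the irradiated library. These intervals did not overlap, but they leave out the spread between mice and libraries. The 10 dividing-cell genes summed to 2.20 and 6.30 UMIs per 10000 in the same cells, and their part in the result was not tested.

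Il7 was shared by cTEC-like and Ccl21a cells. Its level was 2.27 (2.11 to 2.44) and 2.55 (2.43 to 2.66) in cTEC-like cells and 2.23 (2.14 to 2.32) and 2.14 (2.07 to 2.21) in Ccl21a cells. The control intervals of these groups overlapped. Tbata+ Aire-low cells held 1.89 (1.72 to 2.08) and 2.29 (2.13 to 2.46) and Dcn-rich cells 1.48 and 1.72. Because they were numerous, Ccl21a cells held 45.9% of all control and 42.7% of all irradiated Il7 UMIs, against 13.4% and 21.2% in cTEC-like cells. Aire cells had the lowest level, 0.267 (0.234 to 0.303) and 0.323 (0.294 to 0.354), and a thinned share of 7.80% and 10.7% that tuft cells (9.03% and 9.52%) matched. Il7 stood above that background in Ccl21a cells, at 49.7% (46.6 to 52.8) and 51.0% (48.5 to 53.4).

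Il7 was not past the limit in any of the 10 cell groups. Its log2 ratio was 0.17 (-0.0042 to 0.34) in cTEC-like cells and -0.060 (-0.16 to 0.043) in Ccl21a cells, where 0 of the 4 genes with enough UMIs and 8.17% of all genes were past the limit. In Tbata+ Aire+ cells the ratio was 0.36 (0.023 to 0.70).

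Kitl was found in cTEC-like and in Dcn-rich cells. It stood at 1.39 (1.26 to 1.52) and 1.38 (1.30 to 1.47) in cTEC-like cells, and a UMI was left by thinning in 66 of 160 (33.5% to 49.3%) and 158 of 395 cells (35.1% to 45.0%). Dcn-rich cells held 1.24 and 1.20, and 35.9% (29.9 to 42.2) and 33.1% (24.7 to 42.3) of them had a UMI. Tbata+ Aire-low cells held 0.464 and 0.510, Tbata+ Aire+ cells 0.234 and 0.286, and Aire cells 0.156 and 0.164. Ccl21a cells held 0.109 and 0.133, so they held Il7 near the level of cTEC-like cells, whereas Kitl was 12.8 and 10.3 times higher in the latter. In tuft cells there were 0 control and 8 irradiated UMIs.

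The log2 ratio of Kitl in cTEC-like cells was -0.0084 (-0.23 to 0.22). In microfold or enterocyte cells it was 1.08 (0.061 to 2.14), from 22 and 48 UMIs. With Ccl25 it made 2 of the 4 genes with enough UMIs that were past the limit in that group, against 16.9% of all genes. In keratinocyte cells the ratio was -1.02 (-2.31 to 0.19), where 22.6% of all genes were past the limit, but 33 of the 43 control UMIs lay in 1 cell. In dividing cells it was 0.099 (-0.38 to 0.59), and 0 of 4 genes were past the limit there, with 10.9% of all genes.

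**Figure D3:**
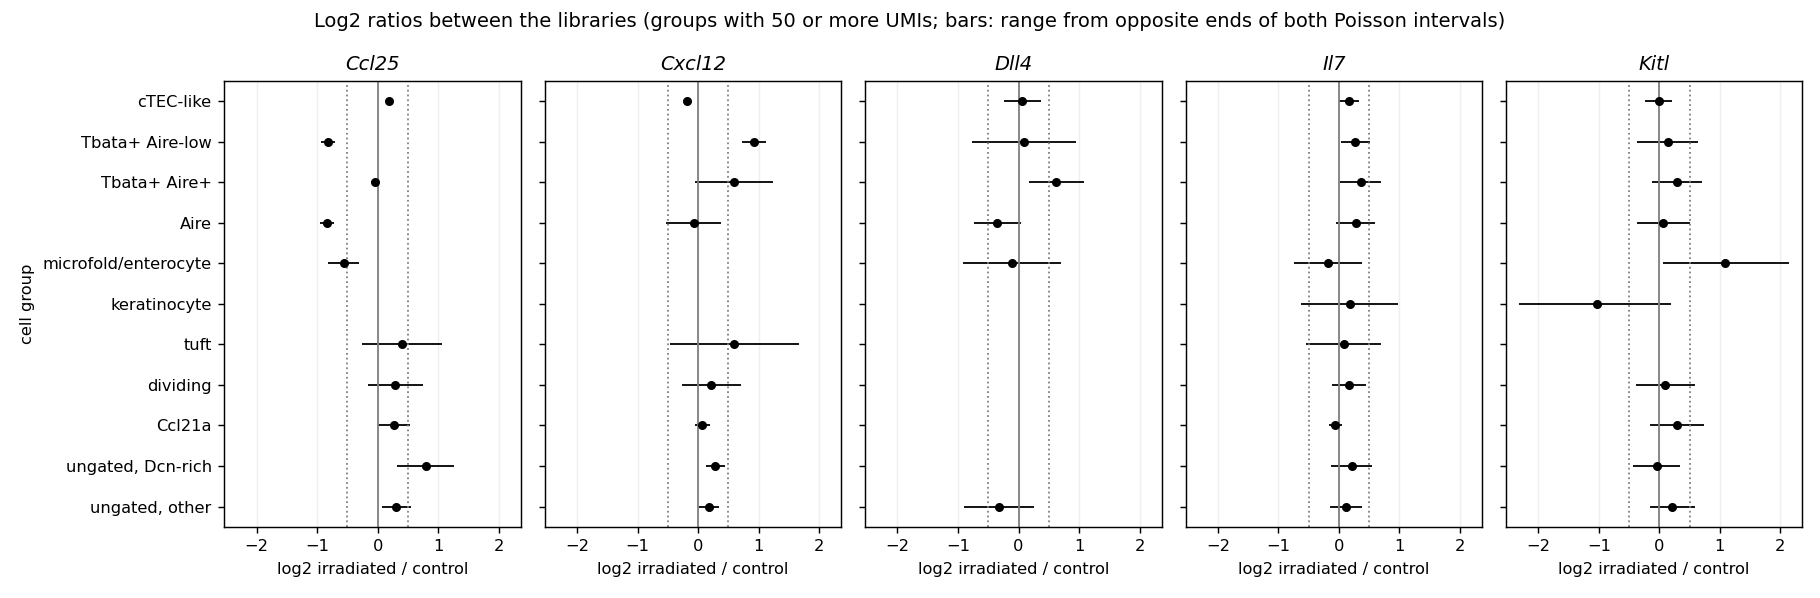
Log2 ratio of the irradiated over the control level for each of the 5 genes (1 panel each) in 11 cell groups, the ungated cells split into Dcn-rich and other cells, for groups with at least 50 UMIs over both libraries. Bars join the opposite ends of both Poisson intervals, and dotted lines mark 0.5 in either direction. In cTEC-like cells all 5 points lie between -0.18 and 0.19.

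Over the 10 cell groups and 5 genes, 42 of 50 pairs had at least 50 UMIs, and 9 of them were past the limit, 5 higher and 4 lower in the irradiated library, where the background ran from 8.17% of all genes in Ccl21a cells to 22.6% in keratinocyte cells. In 6 of the 9 the range, which covers counting error only, left out 0. These were Ccl25 in 3 groups, Cxcl12 in Tbata+ Aire-low cells, Dll4 in Tbata+ Aire+ cells and Kitl in microfold or enterocyte cells. In cTEC-like cells 0 of the 5 genes were past the limit, against 10.6% of all 10679 genes there, and the median ratio of the 5 was 0.062 against -0.0074 over all genes.

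Over all kept cells the 5 genes had higher levels in the irradiated library. The log2 ratios were 0.35 for Ccl25, 0.23 for Cxcl12, 0.18 (0.0035 to 0.36) for Dll4, 0.13 for Il7 and 0.098 (-0.027 to 0.22) for Kitl. The Kitl range held 0. None of the 5 was past the limit, against 16.6% of all genes. When the irradiated groups were weighted by the control library's share of UMIs per group, the ratios became -0.0011, -0.062, 0.062, 0.049 and 0.0038. The cTEC-like group held 54.1% of all Ccl25 UMIs in the control and 74.6% in the irradiated library. With 1 pool per condition, a difference in cell numbers between mice and a difference in what sorting recovered cannot be told apart.

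The cTEC-like cells were not uniform, and their Ccl25 level followed their cortical genes. Cells with under 5 UMIs per 10000 of 13 thymocyte genes (135 control and 309 irradiated) were split by their Psmb11 and Prss16 level. At 10 to 30, 30 to 60, and 60 or more UMIs per 10000, control Ccl25 was 21.8, 35.3 and 75.8, and irradiated Ccl25 was 24.6, 47.6 and 71.1. Ccl25 was higher in the irradiated library in the lower bins and lower in the top bin. Dll4 went the same way over the bins, from 0.362 through 0.567 to 1.15 in control and from 0.357 through 0.557 to 0.888 in irradiated cells. Cxcl12 went from 15.95 through 19.0 to 27.8 and from 12.5 through 14.7 to 20.6. It was lower in the irradiated library in all 3 bins, with intervals that did not overlap but leave out the spread between cells. Over these cells low in thymocyte genes, the 6 mesenchymal genes summed to 3.03 control and 1.20 irradiated UMIs per 10000. Their part in the result was not tested.

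Il7 ran the other way in the irradiated library, from 3.75 (3.45 to 4.08) through 2.89 to 2.40 (2.21 to 2.60), and in the control from 2.45 (2.13 to 2.81) through 2.67 to 1.99 (1.69 to 2.34). Kitl went from 1.29 through 1.23 to 1.74 and from 1.06 through 1.45 to 1.55. Ccl21a, the chemokine of the medulla, was highest in the lowest bin, at 26.9 in control and 34.2 in irradiated cells. It stood at 11.2 and 29.6 in the middle bin and at 11.6 and 10.8 in the top bin. Foxn1 went from 1.50 to 1.95 and from 1.33 to 1.84 between the outer bins. The bins held 59, 42 and 34 control and 112, 72 and 125 irradiated cells, so the top bin weighed more in the irradiated library.

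**Figure D4:**
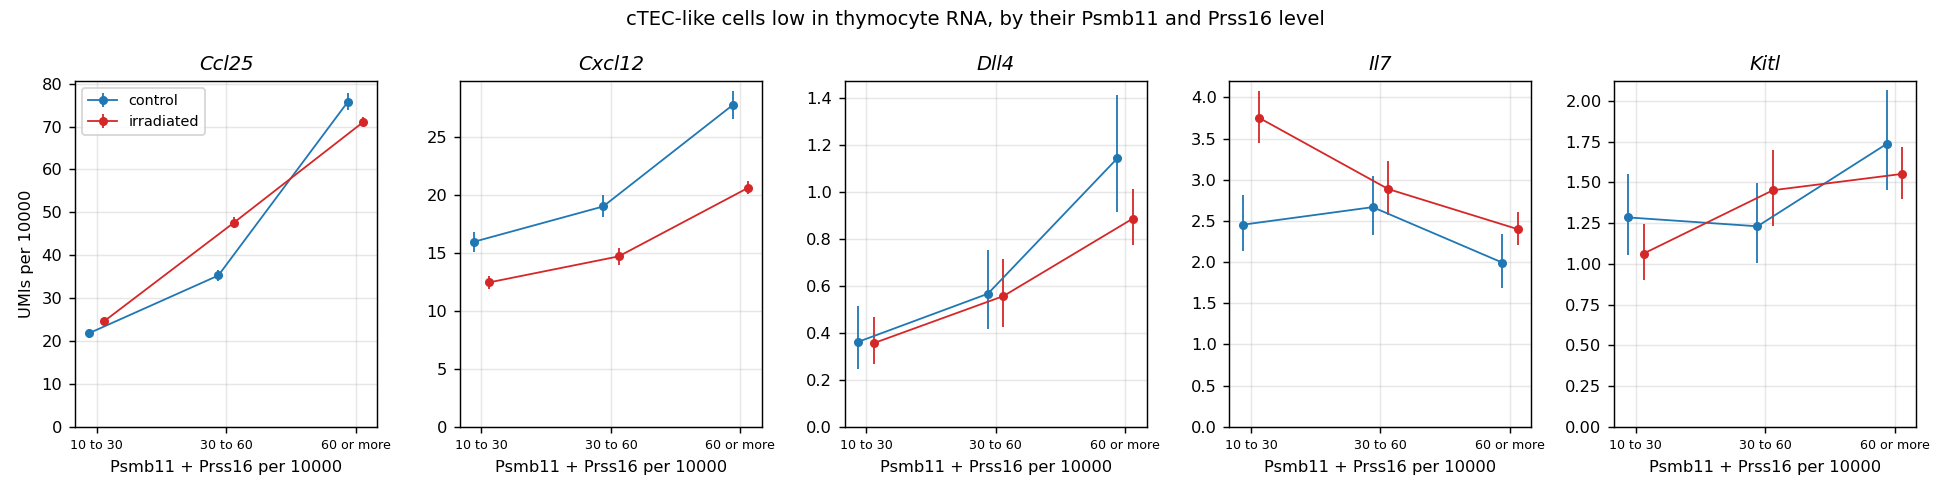
Levels of the 5 genes (UMIs per 10000, linear axes from 0) in cTEC-like cells low in thymocyte genes, in 3 bins of their summed Psmb11 and Prss16 level, for the control (blue) and irradiated (red) libraries, with exact Poisson 95% intervals. Ccl25, Cxcl12 and Dll4 were higher from bin to bin in both libraries, and irradiated Il7 went from 3.75 down to 2.40.

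Some cTEC-like cells carried RNA of thymocytes, either as nurse cells that enclose thymocytes or as doublets, which cannot be told apart here. With at least 5 UMIs per 10000 of the thymocyte genes there were 25 control and 87 irradiated cells, with median depths of 34586 and 27453 UMIs. Their Ccl25 level, 68.7 and 65.5, was above that of the cells low in thymocyte genes, 42.9 and 52.1, by 1.60 and 1.26 times. Cortical genes of the gate were higher too, Prss16 at 66.2 and 72.5 against 41.7 and 54.3 and Psmb11 at 13.5 and 12.9 against 9.22 and 10.1. The part of this cortical difference was not tested. Dll4 stood at 0.940 and 1.02 against 0.672 and 0.658. Il7 stood at 1.94 and 1.80 against 2.39 and 2.91. The log2 ratio of Ccl25 between the libraries was 0.28 (0.24 to 0.33) in the cells low in thymocyte genes and -0.069 (-0.13 to -0.0098) in the others. For Cxcl12 the pair was -0.29 (-0.36 to -0.22) and 0.025 (-0.083 to 0.13). Of the 5 genes, 0 were past the limit in either set, against 12.2% of all genes in the cells low in thymocyte genes and 14.2% in the others.

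Single cTEC-like cells commonly held several of the factors. After thinning, 3 of the 5 genes were found in 43.8% of control (35.9 to 51.8) and 45.1% of irradiated (40.1 to 50.1) cells, and all 5 in 8 of 160 (2.18% to 9.61%) and 21 of 395 cells (3.32% to 8.01%). In contrast, 57.2% of control and 62.9% of irradiated Aire cells and 76.1% and 72.8% of tuft cells held none. Other groups stood nearer to the cTEC-like cells. Only 8.87% and 11.9% of Dcn-rich cells and 19.1% and 15.6% of Tbata+ Aire-low cells held none. For Ccl21a cells the share was 30.3% and 29.2%. Exactly 3 of the 5 genes were found in 22.6% and 14.4% of Dcn-rich and 11.8% and 23.0% of Tbata+ Aire-low cells. Within cTEC-like cells, finding Dll4 did not visibly go with finding Il7 at this depth. Il7 was found in 63.2% (46.0 to 78.2) of the 38 control cells with a Dll4 UMI and in 55.7% (46.5 to 64.7) of the 122 without. For the irradiated library the shares were 54.3% (42.9 to 65.4) and 58.3% (52.6 to 63.8). A link weaker than these intervals was not detectable.

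In the pathways around the 5 genes, a decoy receptor and an interferon-induced chemokine had the clearest differences in cTEC-like cells. Of 10 receptors and scavengers, 6 had enough UMIs, with 1 higher, 2 lower and a median log2 ratio of -0.0033. Over all genes there, 4.29% were past the limit upwards and 6.32% downwards. Ackr4, which scavenges CCL25, CCL19 and CCL21, stood at 1.64 control and 0.745 irradiated UMIs per 10000, a ratio of -1.14 (-1.39 to -0.90). It was lower both in cells low in thymocyte genes (-1.09) and in the others (-1.02), whereas in Ccl21a cells the ratio was 0.35 (0.018 to 0.69). Notch1, the receptor of DLL4, stood at 0.326 and 0.465, a ratio of 0.51 (0.077 to 0.94), with 0.272 and 0.480 in cells low in thymocyte genes and 0.482 and 0.434 in the others. Cxcr4, the receptor of CXCL12, had 24 and 31 UMIs and a ratio of -0.82 (-1.93 to 0.31). Ccr9, the receptor of CCL25, stood at 0.406 and 0.473, a ratio of 0.22 (-0.18 to 0.62). Both receptors lay almost wholly in the cells with thymocyte RNA, which held 22 of the 24 control and 29 of the 31 irradiated Cxcr4 UMIs and 119 of the 133 and 349 of the 351 Ccr9 UMIs.

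Of 9 Notch ligands and modifiers, 6 had enough UMIs, with 0 higher, 1 lower and a median of -0.19. The lower one was Mib2, a ubiquitin ligase that helps ligands signal, at -0.51 (-1.25 to 0.23). Jag2, a further Notch ligand, stood at 1.25 and 1.06. Of 13 other cytokines and chemokines, 8 had enough UMIs, with 0 higher, 1 lower and a median of 0.076. The lower one was Cxcl10, at 6.996 and 4.49 with a ratio of -0.64 (-0.75 to -0.53). Wnt4, a signal that sustains Foxn1, stood at 5.23 and 4.69. Of 10 cortical genes outside the gate, all 10 had enough UMIs, 0 were past the limit and their median was 0.064. Foxn1 had a ratio of 0.082 (-0.12 to 0.29).

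The cells that passed through any of the 3 cortical markers, Tbata included, were 651 control and 1092 irradiated cells, the gate as it had been planned. In them the 5 ratios were 0.44 for Ccl25, 0.46 for Cxcl12, 0.51 for Dll4, 0.50 for Il7 and 0.40 for Kitl. Dll4 was the 1 gene of the 5 past the limit, with 19.9% of all 15153 genes. cTEC-like cells made up 160 of the 651 and 396 of the 1092, and the cortical genes Ctsl, Ly75 and Pax1, which no gate had used, had ratios of 0.71, 0.68 and 0.57 there. Enpep, an aminopeptidase of the cTEC surface, had 0.50. The part of this larger cTEC-like share in the 5 ratios was not tested. Other listed genes past the limit in this wider gate were Ccr9 (0.78), Notch3 (1.08) and Ccl21a (0.62), which were higher, and Il7r (-0.54), Kit (-0.69), Mfng (-0.74), Lfng (-0.72) and Tslp (-0.61), which were lower.

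The genes most like each factor were found by correlation of log2 levels over 18 points, the 9 cell groups with at least 50 cells in both libraries, among 15105 genes. The points share libraries and markers, and the correlations are a description. Ccl25 was followed most closely by Sgpl1 (r = 0.97), Ufsp1, Gm14207, Slc22a7 and Shank2. Sgpl1 lies 24250 bases from Tbata on chromosome 10, and Tbata had divided the groups. Gm14207 is the gene that overlaps Dll4 on the opposite strand. Genes close to Cxcl12 were Kcnk2 (r = 0.99), Diras2, Gucy1a2 and Pltp. Dll4 was followed by Snn (r = 0.95), Fxyd2, Rassf2, Ggh and Tmie. Genes close to Il7 were Ssbp3 (r = 0.98), Copz2, Pard6g and Tbc1d10a, and Kitl was followed by Baiap2 (r = 0.92), Sytl3, Cdh4, Bloc1s4 and Unkl. Among the 5 genes themselves, the closest pairs were Ccl25 and Dll4 (r = 0.91) and Cxcl12 and Il7 (r = 0.89), and the least alike were Dll4 and Il7 (r = 0.18).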

How the data were processed

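TECs pooled from 3 mice per condition were profiled with 10x droplets (chemistry version 3 in the study's methods, version 2 in the labels). The authors trimmed reads with fastp, used Cell Ranger for alignment to mm10 and UMI counting (5.0.1 in the file headers, 5.1 in the labels' processing notes), and the counts were deposited without normalization. Barcodes with under 15% mitochondrial UMIs and between 2000 and 7500 detected genes, over genes found in at least 5 barcodes, were kept. Doublets were limited only by the upper limit of genes. Cells passed gates in order on summed marker UMIs per 10000: cortical 10, tuft 20, dividing 10, Aire 3, microfold or enterocyte 20, keratinocyte 20 and Ccl21a 30. The cortical gate was subdivided after its markers were seen. The 5 genes, gates and lists were chosen with earlier results of these data known. Intervals are exact Poisson for sums and exact Clopper-Pearson for shares, at 95%. A share of cells used each cell thinned to 4000 UMIs. UMIs were summed per group, and no p-value was computed. Named genes were the 5, every listed gene past 0.5 (log2) in the cortical gate with others as examples, and the 5 genes with the highest Pearson correlation of log2(level + 0.05) to each, among genes with at least 200 UMIs, of which some are not reported here. The calculation of the ratios was tried on simulated data, which was no test of a difference between the libraries. Python 3.11.15, numpy 2.4.6, scipy 1.17.1, pandas 2.3.3 and matplotlib 3.10.9 were used, with GENCODE coordinates of GRCm38. Alternatives changed the filters, gate limits, denominator, averaging and cells left out.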

Additional observations from a re-analysis of the deposited data

Results flagged for a closer look

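For 3 of the genes, pairs of results went in opposite directions between the libraries, each ratio beyond its counting error, and the differences were not tested. Ccl25 had a log2 ratio of 0.45 in ungated cells and -0.84 in Aire cells. With gate limits at 0.5 of their values or doubled, the ungated value was -0.033 or -0.0076. Cxcl12 had 0.92 in Tbata+ Aire-low cells and -0.19 in ungated cells, and the latter was positive both in the Dcn-rich (0.29) and in the other ungated cells (0.18). Without cells with 2 or more mesenchymal or endothelial UMIs the ungated value was 0.55. Kitl had 1.08 in microfold or enterocyte cells, from 22 and 48 UMIs, with a thinned share of 7.32% in control and 6.25% in irradiated cells. In ungated cells it had -0.29, but -0.047 in the Dcn-rich and 0.21 in the other ungated cells. Without cells with 2 or more mesenchymal or endothelial UMIs, the ungated Kitl value was 0.43.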

How the results depend on the processing

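No paired analysis was possible because there was 1 library per condition. With gate limits at 0.5 of their values, the log2 ratios were 0.23 for Ccl25 and -0.082 for Cxcl12 in cTEC-like cells, and -0.20 and -1.08 for Ccl25 in Tbata+ Aire+ and Aire cells. With doubled limits Ccl25 in Tbata+ Aire+ cells was at -0.27. Under 10% mitochondrial UMIs, Ccl25 in Aire cells was at -0.70. By the mean over cells, Cxcl12 in cTEC-like cells was at -0.25. Without the 5% of cells with the most UMIs, Ccl25 and Cxcl12 in cTEC-like cells were at 0.28 and -0.29, and Ccl25 in Tbata+ Aire+ and Aire cells at 0.036 and -0.98. Without cells with thymocyte genes at 5 or more per 10000, a setting chosen after seeing the data, they were 0.28 and -0.29 in cTEC-like cells and -1.03 for Ccl25 in Aire cells. Without cells with 2 or more mesenchymal or endothelial UMIs, which left 65 control and 260 irradiated cTEC-like cells, Ccl25 changed sign to -0.23 and Dll4 to -0.26, Il7 was at 0.42, and Ccl25 in Tbata+ Aire+ cells was at 0.027. The cause was not tested. Of 77 values for the 5 genes in cTEC-like cells and Ccl25 in the Aire groups, 59 stayed within the range of the value in the text. Cxcl12 stayed below 0 in cTEC-like cells, and Ccl25 stayed below 0 in Aire cells, under all 11 settings. Values in Tbata+ Aire-low, keratinocyte and tuft cells were not varied. Among these are the Tbata+ Aire-low ratios of 0.92 for Cxcl12 and -0.82 for Ccl25. Dll4 and Kitl are limited by depth, with 243 and 455 control UMIs in cTEC-like cells, and intervals cover no spread between mice.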

Other observations

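In Aire cells, 3 of 12 listed cytokines and chemokines with enough UMIs were past 0.5 (log2) below the control in the irradiated library and 0 above it, where 17.2% of all genes were past that limit in either direction. Tslp, a cytokine made by epithelium that acts on dendritic cells and early lymphocytes, stood at 0.576 control and 0.147 irradiated UMIs per 10000, a ratio of -1.97 (-2.30 to -1.65). Il18 had a ratio of -1.38 (-2.36 to -0.42) and Cxcl14 of -0.91 (-1.36 to -0.47). Of 8 receptors and scavengers with enough UMIs in Aire cells, 3 were past the limit upwards and 1, Il7r (-0.79), downwards. Notch1 was among the higher ones, at 0.57 (0.29 to 0.85). The others were Ccr9 at 0.51 (-0.22 to 1.25) and Notch3 at 0.58 (-0.52 to 1.72), and both of their ranges held 0. In Ccl21a cells Cxcl10, a chemokine induced by interferon, stood at 14.4 and 7.83, a ratio of -0.88 (-0.92 to -0.83). These genes were named after their values had been seen.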
